A study of Homo sapiens with 16 samples.

Results

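The EGR, NR4A and IER early genes are 9 genes. They are EGR1, EGR2, EGR3, NR4A1, NR4A2, NR4A3, IER2 and IER3 of the immediate-early class, and the EGR corepressor gene NAB2. They were chosen by name, with earlier results of these data known, and all 9 were found among the 26364 genes counted in both cell lines. Bulk RNA-seq was performed in Ishikawa cells, which derive from a human endometrial adenocarcinoma, and in T-47D cells, which derive from a human ductal carcinoma of the breast. Both lines, controls included, were kept in phenol-red-free medium with charcoal-stripped serum before receiving 17β-estradiol (E2), the ligand of estrogen receptor. Cells received 10 nM E2 for 2, 4 or 8 h or vehicle (0 h), with 2 replicates for each of the 4 time points in each line, which gave 16 libraries. The labels do not say whether replicates were separate cultures, so p-values measure the spread between these libraries. The sources describe vehicle only at 0 h, so effects of E2 and of time in culture cannot be told apart.

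EGR1, EGR2 and EGR3 encode zinc finger transcription factors that bind GC-rich DNA, and NAB2 encodes a corepressor that binds EGR proteins and is itself induced by them. NR4A1, NR4A2 and NR4A3 encode orphan nuclear receptors whose activity depends mainly on how much protein is made rather than on a ligand. IER2 and IER3 encode short-lived early response proteins, with IER3 known for its part in cell survival. Growth factors, stress and depolarization switch the EGR, NR4A and IER genes on within minutes, and the transcripts are unstable. The signals act through serum response factor and its partners at CArG boxes and through CREB at cAMP response elements (CRE). The first time point here, 2 h, lies after the usual peak of such an induction.

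Promoter sequences were read for EGR1, IER2 and NAB2, the members called lower at 2 h in T-47D cells. The letters were searched for elements through which early genes are known to be induced. Each run covers 250 bases before to 50 bases after the start of transcription (RefSeq sequence, placed on GRCh37 by exact match) and is written 5′ to 3′ on the plus strand. The EGR1 window is chr5:137800918-137801217, that of IER2 is chr19:13260975-13261274, and that of NAB2 is chr12:57482647-57482946. Capitals mark matches to the motifs searched on both strands, which were the CArG box, the CRE half-site TGACG, the EGR site (GCG and GGGCG separated by 1 base) and the estrogen response element (GGTCA and TGACC separated by 3 bases). No 2 motifs overlapped in these windows.
EGR1: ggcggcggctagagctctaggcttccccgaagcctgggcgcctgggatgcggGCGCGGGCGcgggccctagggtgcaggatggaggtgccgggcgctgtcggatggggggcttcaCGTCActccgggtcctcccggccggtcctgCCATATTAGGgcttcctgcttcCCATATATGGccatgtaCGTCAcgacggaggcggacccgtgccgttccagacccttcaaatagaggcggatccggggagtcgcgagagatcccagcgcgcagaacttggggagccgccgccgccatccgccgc
IER2: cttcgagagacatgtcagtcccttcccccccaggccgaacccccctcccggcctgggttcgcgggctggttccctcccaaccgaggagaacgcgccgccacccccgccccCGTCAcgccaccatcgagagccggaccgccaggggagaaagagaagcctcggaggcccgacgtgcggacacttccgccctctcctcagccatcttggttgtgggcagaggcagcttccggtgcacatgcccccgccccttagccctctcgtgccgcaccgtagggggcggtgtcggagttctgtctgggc
NAB2: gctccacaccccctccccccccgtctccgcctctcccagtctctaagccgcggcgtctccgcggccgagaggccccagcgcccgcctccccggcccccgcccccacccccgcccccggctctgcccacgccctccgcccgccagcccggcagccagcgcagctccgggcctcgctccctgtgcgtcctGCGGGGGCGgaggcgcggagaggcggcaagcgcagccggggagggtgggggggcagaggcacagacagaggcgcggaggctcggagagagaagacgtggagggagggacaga
The EGR1 window held 2 CArG boxes, 2 CRE half-sites and 1 EGR site. A CArG box was present in 1.29% of all 35116 promoter windows of this length, a CRE half-site in 24.6% and an EGR site in 9.43%. The IER2 window held 1 CRE half-site, and the NAB2 window held 1 EGR site, 62 bases before the start. An estrogen response element matched none of these windows, and it matched 0.057% of all windows. Of the windows not printed, that of NR4A3 held 4 CRE half-sites, and neither window of NR4A1 held a match. For EGR2, a window held 1 CArG box and 2 CRE half-sites, another held 1 EGR site, and another held no match. A match describes letters and not binding, and the relation of matches to the changes was not tested.

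The total per library ranged from 41177912 to 58918642 counts for Ishikawa and from 41223813 to 64148903 for T-47D cells. Between 71.2% and 74.6% of counts from 1 to 10 were even numbers, so a count need not be 1 independent fragment, and intervals from counts cover counting error only. Of 7 markers of Ishikawa cells, PAX8, SOX17, EMX2 and HOXA10 stayed under 1 CPM (counts scaled by the size of each library) in all T-47D libraries, and GATA3 and TFF1 of 8 markers of T-47D cells stayed under 1 CPM in all Ishikawa libraries. The epithelial genes KRT18 and EPCAM and the receptor gene ESR1 stand in both lists and were expressed in both lines, with KRT18 at 411 to 555 CPM in Ishikawa and 1330 to 1860 CPM in T-47D libraries. With these 3 genes included, the 7 Ishikawa markers summed to more in T-47D (1696 to 2273 CPM) than in Ishikawa libraries (1272 to 1579 CPM), while the 8 T-47D markers summed to 5456 to 6536 CPM and 986 to 1176 CPM. Of 8 markers of blood, stromal and endothelial cells, PTPRC, CD3E, PDGFRB, PECAM1 and CDH5 stayed under 1 CPM throughout, and the 8 together summed to between 152 and 272 CPM in Ishikawa and between 75.0 and 96.3 CPM in T-47D libraries. Most of these sums was COL1A1, a collagen chain counted here as a fibroblast marker. COL1A1 fell in Ishikawa cells by 0.56 ± 0.10 at 4 h and 0.60 ± 0.10 at 8 h on the log2 scale (edgeR adjusted p = 0.00161 and 0.000823). In T-47D cells it fell by 0.25 ± 0.06 at 8 h (edgeR adjusted p = 0.0051). CD68, of macrophages, stood at 1.53 to 2.32 CPM and 2.19 to 3.71 CPM, and COL1A2 reached 1.49 CPM in Ishikawa cells. Which cells made these transcripts was not tested, nor was any part of other cell types in the members' values. In Ishikawa cells, the time labels of 4 h and 8 h did not separate the libraries. The 2 libraries of 4 h differed from each other by a root mean square of 0.391 on the log2 scale, and every pair of a 4-h and an 8-h library differed by less, between 0.329 and 0.378. Results at 4 h and 8 h in Ishikawa cells are therefore also given with these 4 libraries as 1 group. The labels name no batch.

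Before E2, NAB2 and IER2 were the most abundant of the 9 transcripts per length in both lines, and most other members were higher in Ishikawa than in T-47D cells. As CPM per kilobase of exon at 0 h, NAB2 measured 25.1 ± 1.20 (SD, n = 2) in Ishikawa and 27.6 ± 0.373 in T-47D cells, and IER2 measured 16.1 ± 0.466 and 14.9 ± 0.600. In Ishikawa cells these were followed by EGR1 (7.25), NR4A1 (1.91), NR4A2 (1.10), EGR3 (0.193), NR4A3 (0.157), EGR2 (0.0827) and IER3 (0.0704). In T-47D cells they were followed by NR4A1 (1.54), IER3 (1.24), EGR1 (0.376), NR4A2 (0.179), NR4A3 (0.0810), EGR2 (0.0133) and EGR3 (0.00950). The 2 libraries of EGR2 and those of IER3 overlapped in Ishikawa cells, and those of EGR2 and EGR3 overlapped in T-47D cells, so these neighbours did not differ beyond their spread. All other neighbours in both orders were apart in both libraries, which was not a test. EGR3 and NR4A3 in Ishikawa cells were apart only narrowly, at 0.173 and 0.212 against 0.169 and 0.146, on 41 to 51 counts per library.

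**Figure D1:**
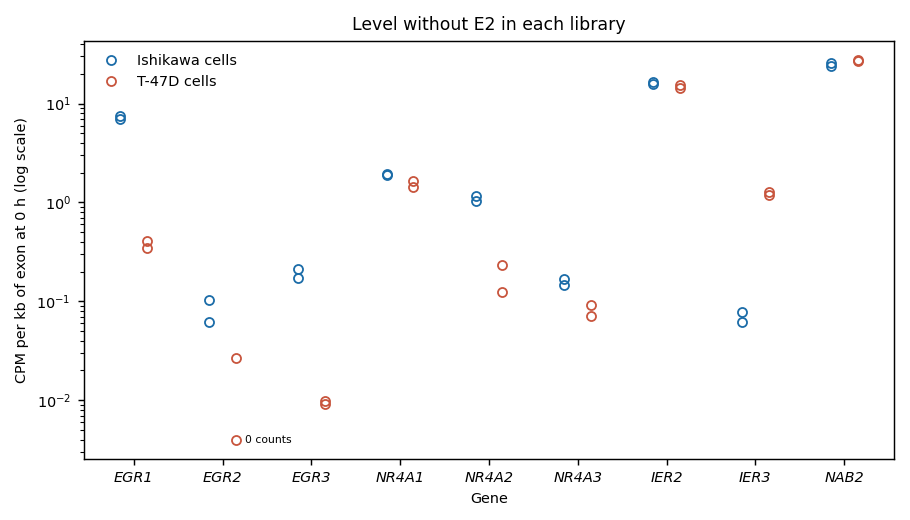
Level of each of the 9 genes at 0 h as CPM per kilobase of exon (vertical axis, log scale), with 1 point for each library and the 2 cell lines in different colours. NAB2 and IER2 lie together in both lines near the top, while EGR1 lies at 7.25 in Ishikawa and 0.376 in T-47D cells, and the T-47D library with 0 counts of EGR2 is drawn at the lower edge.

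At 0 h, EGR1, NR4A1, NR4A2 and NR4A3 were lower in T-47D than in Ishikawa cells in edgeR's quasi-likelihood test (adjusted p (Benjamini-Hochberg) under 0.05, here termed called). These were 4 of the 6 members with at least 10 counts in every library, against 81.9% of all 17090 genes tested. EGR2 and IER3 passed the filter on low counts only through the line where they were high. EGR3 passed it only through libraries other than those of T-47D cells at 0 h. The counts of EGR2, EGR3 and IER3 are therefore given without a test. EGR1 measured 22.0 and 23.4 CPM in the Ishikawa libraries and 1.27 and 1.09 CPM in the T-47D libraries, 19.2-fold lower in T-47D cells (log2 difference -4.26 ± 0.16 SE, edgeR adjusted p = 1.31e-15). NR4A2 measured 4.21 and 4.80 CPM against 0.508 and 0.965 CPM (log2 difference -2.62 ± 0.29). IER3 had 75 and 65 counts in T-47D cells against 5 and 4 counts in Ishikawa cells.
EGR3 had 41 and 51 Ishikawa counts against 2 and 2 T-47D counts, and EGR2 had 18 and 11 against 0 and 4. NR4A3 and NR4A1 differed less, by -0.95 ± 0.31 and -0.31 ± 0.10 on the log2 scale (edgeR adjusted p = 0.00939 and 0.0101). The NR4A3 call was lost without replicate 2 of T-47D cells (-0.78, edgeR adjusted p = 0.0750) or replicate 1 of Ishikawa cells (-0.82, edgeR adjusted p = 0.0594), and the NR4A1 call without replicate 2 of T-47D cells (-0.22, edgeR adjusted p = 0.118). NAB2 and IER2 were not called, with log2 differences of 0.14 ± 0.13 and -0.11 ± 0.07 (edgeR adjusted p = 0.349 and 0.131), although NAB2 was called without a filter on low counts (0.14, edgeR adjusted p = 0.0494).

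After 2 h of E2, EGR1 and IER2 were called lower in both lines, and in T-47D cells NAB2 was also called lower and IER3 higher. In Ishikawa cells, EGR1 and IER2 fell and no member rose among the 8 tested, against 4.35% of all 15787 genes called. In T-47D cells, 3 members fell and 1 rose among the 7 with at least 10 counts in every library, against 9.3% of all 15594 genes called. EGR3 passed the filter in T-47D cells only through its treated libraries, so it had to be higher there and is left out of all counts in that line. The median log2 fold change of these members was -0.24 (Ishikawa) and -0.32 (T-47D), and that of all genes was -0.002 and -0.009. Had EGR3 been counted, the T-47D median over 8 members would have been 0.27, so its sign turns on that gene. In T-47D cells EGR1, NR4A1, IER2 and NAB2 lay below 0 at 2 h, and NR4A2, NR4A3 and IER3 lay above it.

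At 4 h, EGR1 (higher) and IER2 (lower) were called in Ishikawa cells, and the background was 14.3% of all genes. At 8 h in Ishikawa cells, EGR1 and EGR3 were called higher and NR4A1 and IER2 lower, with 22.1% of all genes called. With the 4 late libraries as 1 group, EGR1 and EGR3 rose and NR4A1, NR4A2 and IER2 fell against 0 h, with 25.7% of all genes called. In T-47D cells, IER2 and NAB2 were called lower at 4 h, against 21.5% of all genes. At 8 h, IER3 was called higher and NR4A1, IER2 and NAB2 lower, against 29.7% of all genes. The 3 contrasts of a line share its 0-h libraries.

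**Figure D2:**
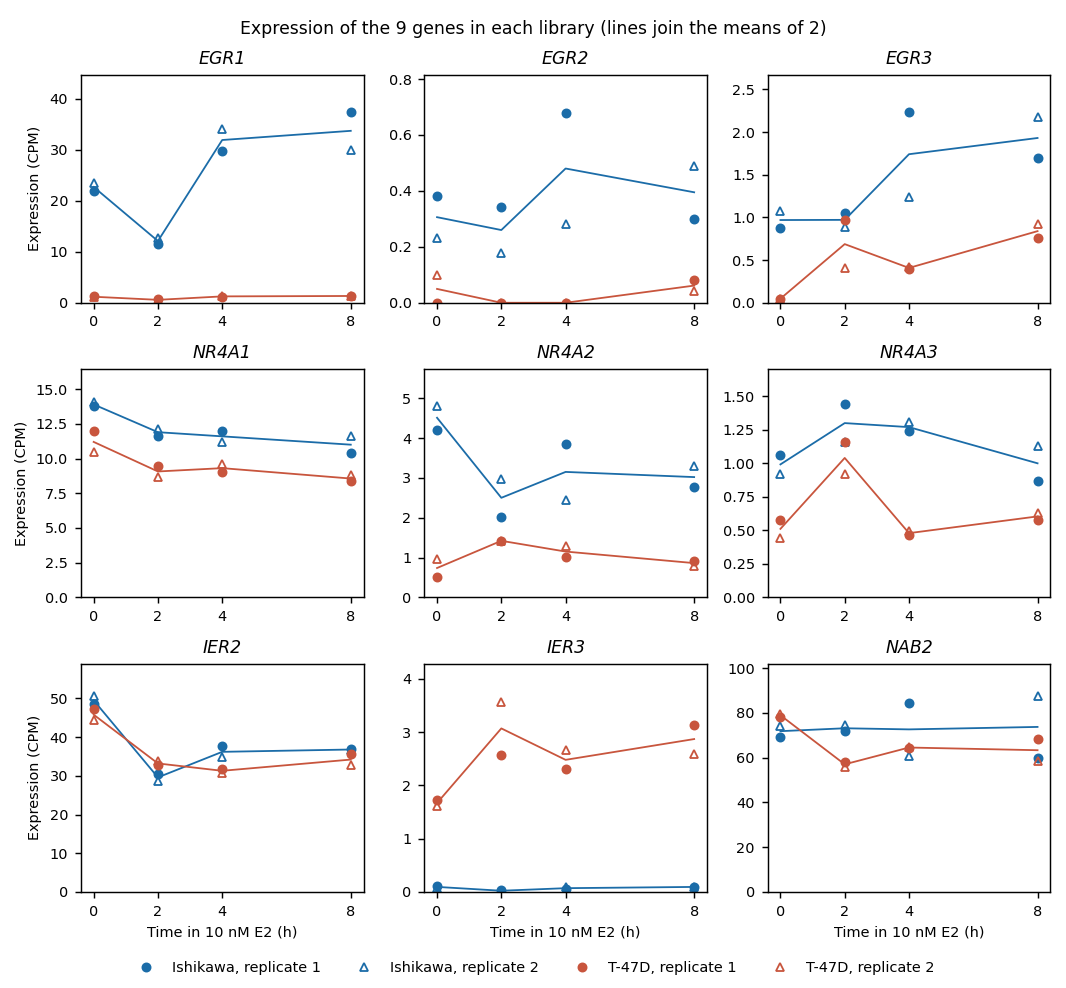
Expression in CPM (vertical axes, each from 0) of the 9 genes against the time in E2 in hours (horizontal axes), with filled circles for replicate 1, open triangles for replicate 2 and lines through the mean of both. IER2 drops after 0 h in both lines, EGR1 in Ishikawa cells dips at 2 h to 11.6 and 12.6 CPM and then exceeds 0 h, and NAB2 in Ishikawa cells splits at 4 h and 8 h across the time labels.

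EGR1 (chr5:137801168-137804992, plus strand, 2 exon blocks) dipped at 2 h and was higher at 4 h and 8 h in Ishikawa cells. It measured 22.0 and 23.4 CPM at 0 h, 11.6 and 12.6 CPM at 2 h, 29.7 and 34.0 CPM at 4 h, and 37.3 and 30.0 CPM at 8 h. Both 2-h libraries were below both 0-h libraries, all 4 late libraries were above them, and these 3 sets did not overlap. EGR1 fell by 0.90 ± 0.11 on the log2 scale at 2 h (edgeR adjusted p = 8.27e-05) and rose by 0.49 ± 0.11 at 4 h (edgeR adjusted p = 0.00548) and 0.56 ± 0.10 at 8 h (edgeR adjusted p = 0.00162). With the late libraries as 1 group the rise was 0.53 ± 0.09 (edgeR adjusted p = 0.000548). The 4-h call was lost without replicate 2 of 4 h, where the log2 fold change was 0.38 (edgeR adjusted p = 0.0548), and the 2-h and 8-h calls passed without each library in turn.

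Tested directly against 2 h, EGR1 in Ishikawa cells was 2.62-fold higher at 4 h (log2 fold change 1.39 ± 0.11, edgeR adjusted p = 1.62e-05) and 2.75-fold higher at 8 h (1.46 ± 0.11, edgeR adjusted p = 7.56e-06). It was the only member called at 4 h against 2 h, where 2.39% of all genes were called. At 8 h against 2 h, EGR1 and IER2 were called, with 2.24% of all genes. These contrasts share the 2-h libraries with the contrast of 2 h against 0 h. As 1 group against 2 h, the late libraries gave 1.43 ± 0.10 for EGR1, with EGR1 and IER2 called and 4.84% of all genes.

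In T-47D cells EGR1 stood near 1 CPM, and the same dip at 2 h rested on few counts. Its counts were 55 and 44 before E2, 32 and 19 after 2 h, 70 and 70 after 4 h, and 67 and 63 after 8 h. As CPM these were 1.27 and 1.09, then 0.686 and 0.459, then 1.12 and 1.39, then 1.37 and 1.29. The 2-h libraries were the lowest of the 8, and the late libraries overlapped those of 0 h. EGR1 fell by 1.04 ± 0.31 on the log2 scale at 2 h (edgeR adjusted p = 0.0401). This call was lost without each one of the 4 libraries compared, where the log2 fold change lay between -1.36 and -0.78 and the edgeR adjusted p between 0.0584 and 0.288, with counts divided by 2 (edgeR adjusted p = 0.0503), in the fit of only the 2 groups compared (edgeR adjusted p = 0.0601) and in DESeq2 (adjusted p = 0.0736). Later it was 0.07 ± 0.27 (4 h) and 0.17 ± 0.27 (8 h).

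Against 2 h, EGR1 in T-47D cells was higher by 1.11 ± 0.30 at 4 h (edgeR adjusted p = 0.0464) and by 1.21 ± 0.30 at 8 h (edgeR adjusted p = 0.00869). It was the only member called in either contrast, against 3.4% of all genes at 4 h and 16.8% at 8 h. The 4-h call was lost without each of the 4 libraries compared (log2 fold change 0.86 to 1.44, edgeR adjusted p = 0.0866 to 0.407), and the 8-h call was lost without replicate 2 of 2 h (0.96, edgeR adjusted p = 0.114). The change at 2 h did not differ detectably between the lines, with a T-47D minus Ishikawa difference of -0.12 ± 0.29 on the log2 scale (edgeR unadjusted p = 0.673).

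EGR3, on chromosome 8, was counted at very different levels before E2 in the lines. In T-47D cells its counts are described without a test, since it passed the filter there only through the treated libraries. Its T-47D counts were 2 and 2 before E2, 45 and 17 after 2 h, 25 and 21 after 4 h, and 37 and 45 after 8 h. All 6 treated libraries lay above both 0-h libraries. Summed over the 2 libraries, the level at 2 h was 14.7 times that before E2 (95% exact counting interval 5.47 to 55.8), the 4-h level 8.52 times (3.11 to 32.6) and the 8-h level 17.6 times (6.60 to 66.0). Because counts were mostly even, the interval at 2 h was also computed on halved counts and was 3.62 to 123. These intervals cover counting error only and not the spread between libraries. They are not a test of a rise, since passing the filter already required higher treated counts. The ratio at 2 h was 8.59 without replicate 1 of 2 h and 20.2 without replicate 2.

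In Ishikawa cells EGR3 measured 0.873 and 1.07 CPM at 0 h, 1.05 and 0.892 CPM at 2 h, 2.23 and 1.24 CPM at 4 h, and 1.69 and 2.18 CPM at 8 h. The 2-h libraries lay within the range of 0 h, and the 4 late libraries lay above all 4 earlier ones. EGR3 rose by 0.98 ± 0.31 on the log2 scale at 8 h (edgeR adjusted p = 0.0313) and by 0.92 ± 0.27 with the late libraries as 1 group (edgeR adjusted p = 0.0189), while the 4-h value was 0.84 ± 0.31 (edgeR adjusted p = 0.0847). The 8-h call was lost without replicate 1 of 0 h (0.85, edgeR adjusted p = 0.141), replicate 2 of 0 h (1.14, edgeR adjusted p = 0.112) or replicate 2 of 8 h (0.78, edgeR adjusted p = 0.175). The 4-h value was called without replicate 2 of 4 h (1.20, edgeR adjusted p = 0.0214).

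EGR2 (chr10:64571756-64578927, minus strand, 4 exon blocks) stayed near the limit of detection. Its Ishikawa counts were 18 and 11 before E2, 15 and 10 after 2 h, 28 and 12 after 4 h, and 18 and 22 after 8 h, and these groups overlapped. In T-47D cells the counts were 0 and 4 before E2, 0 in all 4 libraries of 2 h and 4 h, and 4 and 2 after 8 h, too few to be tested. A count of 0 allows up to 0.0724 CPM in a 2-h library and 0.0595 CPM in a 4-h library. Fitted differences between the lines are not given for EGR2, since they rest on these counts.

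NAB2 (chr12:57482826-57489259, plus strand, 7 exon blocks) fell in T-47D cells. It measured 78.1 and 79.6 CPM at 0 h, 58.0 and 56.0 CPM at 2 h, 64.4 and 64.6 CPM at 4 h, and 68.1 and 58.4 CPM at 8 h. All 6 treated libraries lay below both 0-h libraries, and the 2-h libraries were the lowest. At 2, 4 and 8 h the log2 fold change was -0.48 ± 0.06, -0.30 ± 0.06 and -0.32 ± 0.06 (edgeR adjusted p = 3.48e-05, 0.00188 and 0.000667), and all 3 calls passed without each library in turn.
In Ishikawa cells NAB2 measured 69.4 and 74.2 CPM at 0 h, 71.8 and 74.4 CPM at 2 h, 84.6 and 60.6 CPM at 4 h, and 59.8 and 87.6 CPM at 8 h. At each late time, 1 library lay above both 0-h libraries and the other below them, and the log2 fold changes were 0.02 to 0.03 with a standard error of 0.15. The T-47D minus Ishikawa difference was -0.49 ± 0.19 at 2 h (edgeR adjusted p = 0.282). NAB2 shares 69 exon bases on the opposite strand with STAT6, and the strand setting of the counting is not given in the sources used here. In T-47D cells STAT6 measured 165 and 169 CPM at 0 h, 163 and 162 CPM at 2 h, 155 and 159 CPM at 4 h, and 143 and 129 CPM at 8 h, so it too was lower in every treated library, most at 8 h, and its part in the NAB2 values was not tested. In Ishikawa cells STAT6 measured 9.98 and 14.5 CPM at 0 h, and between 10.2 and 10.5 CPM in the 4 late libraries.

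IER2 (chr19:13261225-13265725, plus strand, 2 exon blocks) fell in both lines at every time after E2. The Ishikawa libraries measured 48.5 and 50.5 CPM at 0 h, 30.6 and 28.7 CPM at 2 h, 37.6 and 34.8 CPM at 4 h, and 36.9 and 36.6 CPM at 8 h. The T-47D libraries measured 47.2 and 44.5 CPM at 0 h, 32.7 and 33.8 CPM at 2 h, 31.7 and 30.8 CPM at 4 h, and 35.6 and 32.9 CPM at 8 h. In both lines, all 6 treated libraries lay below both 0-h libraries.

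At 2 h IER2 fell by 0.73 ± 0.07 on the log2 scale in Ishikawa cells (edgeR adjusted p = 7.92e-06) and by 0.47 ± 0.06 in T-47D cells (edgeR adjusted p = 4.49e-05). The Ishikawa log2 fold change was -0.45 ± 0.07 at 4 h, -0.43 ± 0.07 at 8 h and -0.44 ± 0.06 with the late libraries as 1 group. The 4-h and 8-h values of T-47D cells were -0.56 ± 0.06 and -0.42 ± 0.06. All 6 calls passed without each library in turn. The changes at 2 h were not called as different between the lines, with a T-47D minus Ishikawa difference of 0.28 ± 0.10 (edgeR adjusted p = 0.195).
In Ishikawa cells IER2 was higher at 8 h than at 2 h by 0.30 ± 0.07 (edgeR adjusted p = 0.0439), a call that was lost without each of the 4 libraries compared (log2 fold change 0.25 to 0.36). At 4 h against 2 h the difference was 0.29 ± 0.07 (edgeR adjusted p = 0.0535), and with the late libraries as 1 group it was 0.29 ± 0.06 (edgeR adjusted p = 0.0110). IER2 shares 662 and 946 exon bases with 2 long noncoding RNA genes on the opposite strand.

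IER3 (chr6:30710976-30712325, minus strand, 1 exon block) rose in T-47D cells, where the libraries measured 1.73 and 1.61 CPM at 0 h, 2.57 and 3.57 CPM at 2 h, 2.30 and 2.66 CPM at 4 h, and 3.14 and 2.59 CPM at 8 h. All 6 treated libraries lay above both 0-h libraries. The log2 fold change was 0.86 ± 0.21 at 2 h (edgeR adjusted p = 0.0117) and 0.78 ± 0.21 at 8 h (edgeR adjusted p = 0.00874), and 0.56 ± 0.21 at 4 h (edgeR adjusted p = 0.0672). The 2-h call was lost without replicate 2 of 2 h (0.62, edgeR adjusted p = 0.197) or replicate 2 of 0 h (0.82, edgeR adjusted p = 0.0655), and the 8-h call without replicate 1 of 8 h (0.64, edgeR adjusted p = 0.0689). Its Ishikawa counts were 5 and 4 before E2, 2 and 0 after 2 h, 2 and 4 after 4 h, and 6 and 4 after 8 h, too few to be tested within that line. IER3 shares 440 exon bases with IER3-AS1 on the opposite strand.

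NR4A1 (chr12:52416616-52453291, plus strand, 11 exon blocks) was lower in every treated library than at 0 h in both lines. The Ishikawa libraries measured 13.8 and 14.1 CPM at 0 h, 11.6 and 12.1 CPM at 2 h, 12.0 and 11.2 CPM at 4 h, and 10.4 and 11.6 CPM at 8 h. The T-47D libraries measured 12.0 and 10.5 CPM at 0 h, 9.47 and 8.67 CPM at 2 h, 9.0 and 9.62 CPM at 4 h, and 8.35 and 8.78 CPM at 8 h. The groups of treated libraries did not overlap 0 h in either line.
The test was passed at 8 h only, with a log2 fold change of -0.35 ± 0.10 in Ishikawa cells (edgeR adjusted p = 0.0257) and -0.39 ± 0.11 in T-47D cells (edgeR adjusted p = 0.00942). With the late Ishikawa libraries as 1 group the value was -0.31 ± 0.09 (edgeR adjusted p = 0.0173). The 8-h call in Ishikawa cells was lost without replicate 1 of 8 h (-0.25), replicate 2 of 0 h (-0.33) or replicate 2 of 2 h (-0.35), and in T-47D cells without replicate 1 of 8 h (-0.35) or replicate 1 of 0 h (-0.29). At 2 h the values were -0.22 ± 0.10 and -0.32 ± 0.11 (edgeR adjusted p = 0.289 and 0.0761). The T-47D minus Ishikawa difference was -0.07 ± 0.15 at 2 h and -0.05 ± 0.15 at 8 h. NR4A1 shares 754 exon bases with NR4A1AS on the opposite strand.

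NR4A2 (chr2:157180949-157198860, minus strand, 11 exon blocks) changed differently in the lines at 2 h, with at least 22 counts in every library. In Ishikawa cells it measured 4.21 and 4.80 CPM at 0 h, 2.03 and 2.98 CPM at 2 h, 3.84 and 2.45 CPM at 4 h, and 2.76 and 3.29 CPM at 8 h. In T-47D cells it measured 0.508 and 0.965 CPM at 0 h, 1.41 and 1.42 CPM at 2 h, 1.01 and 1.29 CPM at 4 h, and 0.923 and 0.796 CPM at 8 h. The 2-h libraries were below those of 0 h in Ishikawa cells and above them in T-47D cells, without overlap in either line.

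Neither change at 2 h was called within its line, and both were close to the threshold. The log2 fold change was -0.83 ± 0.23 in Ishikawa cells (edgeR adjusted p = 0.0557, DESeq2 adjusted p = 0.0291) and 0.94 ± 0.32 in T-47D cells (edgeR adjusted p = 0.0748). The Ishikawa value was called without a filter (edgeR adjusted p = 0.000462), with counts divided by 2 (0.0490), with only the groups compared (0.0321) and without any 1 of the 4 late libraries (0.0258 to 0.0411), and its edgeR adjusted p was 0.0589 to 0.469 without a 0-h or 2-h library. The T-47D value was called without a filter (edgeR adjusted p = 0.0150) and without replicate 2 of 0 h (1.48, edgeR adjusted p = 0.0211). Their difference, T-47D minus Ishikawa, was 1.79 ± 0.41 (edgeR adjusted p = 0.0145). It was not called without replicate 1 of 0 h in T-47D cells (1.39, edgeR adjusted p = 0.135), replicate 1 or 2 of 2 h in T-47D cells (1.80 and 1.79, edgeR adjusted p = 0.0607 and 0.0577) or replicate 1 of 2 h in Ishikawa cells (1.52, edgeR adjusted p = 0.0913). With the late Ishikawa libraries as 1 group, NR4A2 fell by 0.83 ± 0.22 at 2 h (edgeR adjusted p = 0.0438) and by 0.55 ± 0.19 at 4 h to 8 h (edgeR adjusted p = 0.0399).

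NR4A3 (chr9:102584137-102629173, plus strand, 9 exon blocks) was not called in either line against 0 h at any time, with a value near the threshold in T-47D cells at 2 h. In T-47D cells it measured 0.577 and 0.445 CPM at 0 h, 1.16 and 0.917 CPM at 2 h, 0.463 and 0.496 CPM at 4 h, and 0.574 and 0.633 CPM at 8 h. The 2-h libraries were the 2 highest of the 8, and the log2 fold change was 1.01 ± 0.34 at 2 h (edgeR adjusted p = 0.0764). It was called without a filter (edgeR adjusted p = 0.0469) and with at least 10 counts in every library (edgeR adjusted p = 0.0481). In Ishikawa cells the 8 libraries ranged from 0.869 to 1.44 CPM, and the log2 fold change at 2 h was 0.39 ± 0.29.

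**Figure D3:**
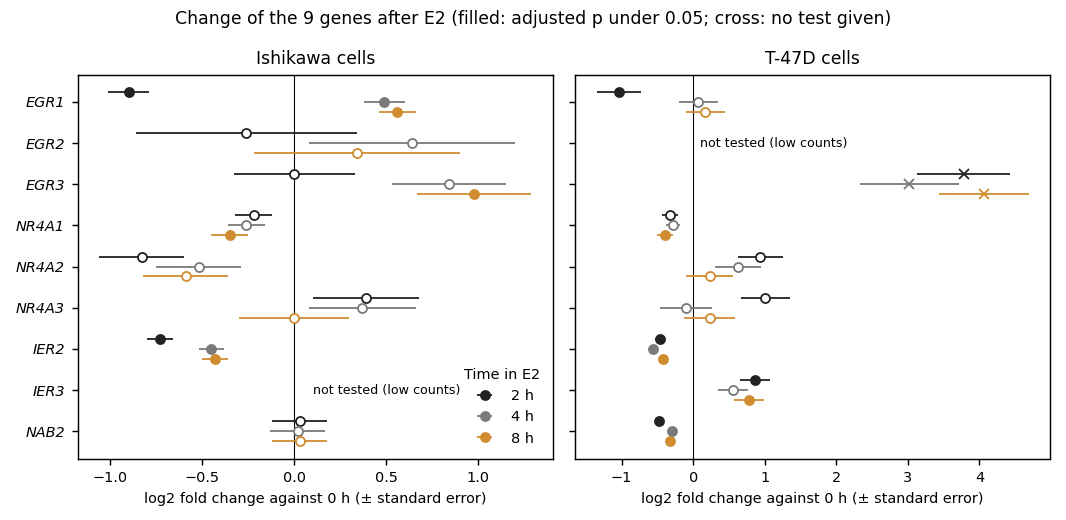
Log2 fold change against 0 h (horizontal axes, which differ between the panels) for the 9 genes at 2, 4 and 8 h, with bars for the standard error filled points for an edgeR adjusted p under 0.05 and crosses for EGR3 in T-47D cells, which is given without a test. IER2 lies below 0 at all times in both lines, EGR1 at 2 h lies at -0.90 in Ishikawa and -1.04 in T-47D cells, and NR4A2 at 2 h lies on opposite sides of 0 with open points.

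Tested over all 16 libraries, NR4A2 was the only member whose change at 2 h was called as different between the lines. It was 1 of the 6 members with at least 10 counts in every library, against 2.67% of all genes. EGR2, EGR3 and IER3 passed the filter of this fit only through groups where they were high and are left out. The fitted EGR3 difference, T-47D minus Ishikawa, was 3.80 ± 0.76 at 2 h. This value rests on the 4 counts of T-47D cells at 0 h and is given without a test. EGR3 passed the filter of this fit through its Ishikawa libraries, and with at least 10 counts in every library it was not tested. The EGR3 difference was 3.04 without replicate 1 of 2 h and 3.75 without replicate 1 of 0 h in T-47D cells. At 4 h, edgeR called 0 of the 6 members, against 6.03% of all genes, and DESeq2 also called 0. At 8 h, edgeR also called 0 of the 6 members, against 10.0% of all genes. The fitted EGR3 difference at 8 h, again without a test, was 3.08 ± 0.76. It was 3.12 and 3.03 when either 0-h library of T-47D cells was left out.

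Of the relatives of the members that were tested, IER5 and IER5L rose at 2 h in Ishikawa cells, where IER2 fell. IER5, a relative of IER2 that acts with heat shock factor 1, measured 29.3 and 28.4 CPM at 0 h and 49.5 and 53.2 CPM at 2 h in Ishikawa cells, a rise of 0.84 ± 0.07 on the log2 scale (edgeR adjusted p = 1.3e-06). IER5L measured 77.0 and 84.7 CPM at 0 h and 173 and 178 CPM at 2 h, a rise of 1.13 ± 0.07 (edgeR adjusted p = 6.43e-08).
In T-47D cells IER5 measured 50.7 and 49.5 CPM at 0 h and 40.3 and 40.9 CPM at 2 h, and fell by 0.31 ± 0.05 (edgeR adjusted p = 0.000672). IER5L changed by -0.11 ± 0.08 at 2 h in that line. Both differed between the lines at 2 h, with T-47D minus Ishikawa differences of -1.14 ± 0.09 for IER5 and -1.22 ± 0.11 for IER5L (edgeR adjusted p = 2.77e-08 and 3.48e-07). NAB1, the second EGR corepressor, changed by -0.26 ± 0.07 in Ishikawa cells (edgeR adjusted p = 0.0548) and -0.05 ± 0.09 in T-47D cells at 2 h. EGR4 was not tested, with 0 to 12 counts per library in Ishikawa cells and 0 counts in all 8 T-47D libraries.

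Among 29 other immediate-early genes, more were called lower than higher at every time in both lines. In Ishikawa cells 10 fell and 5 rose at 2 h, with a median log2 fold change of -0.15 over the 29 tested, where 4.35% of all genes were called, and in T-47D cells 8 fell and 4 rose among the 28 tested, with a median of -0.18, where 9.3% were called. In Ishikawa cells the largest changes at 2 h were in PLK2, a polo-like kinase (-1.49), JUNB, a subunit of the AP-1 factor (-1.17), and CTGF, a matricellular growth factor (-1.13). In T-47D cells they were in the transcription factor MYC (2.51), PLK2 (-0.91) and the small MAF factor MAFF (0.75). At 4 h, 10 fell and 4 rose in Ishikawa cells and 12 fell and 2 rose in T-47D cells, against 14.3% and 21.5% of all genes. At 8 h, 9 fell and 5 rose in Ishikawa cells and 11 fell and 2 rose in T-47D cells, against 22.1% and 29.7% of all genes.

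Genes that act on or after the members were also counted at 2 h, when 4.35% of all genes were called in Ishikawa and 9.3% in T-47D cells. Lists this short with 0 or 1 call are near those shares, and nothing is read from them. Of 8 factors upstream of immediate-early genes, including SRF, ELK1 and CREB1, edgeR called 0 at 2 h in Ishikawa cells and ELK4, an SRF partner, in T-47D cells (0.21 ± 0.07, edgeR adjusted p = 0.0482). RXRA, a dimer partner of NR4A1 and NR4A2, fell by 0.32 ± 0.04 at 2 h in T-47D cells, while neither RXRA nor RXRB was called at 2 h in Ishikawa cells. Of the EGR1 target genes, PDGFA, a growth factor chain, fell at 2 h in both lines (-0.60 ± 0.14 in Ishikawa and -0.28 ± 0.07 in T-47D cells), and PDGFB fell in Ishikawa cells (-0.41 ± 0.06). These were 2 of the 6 tested in Ishikawa and 1 of the 5 tested in T-47D cells. At 4 h and 8 h in Ishikawa cells, when EGR1 was called higher, PDGFB stood at -1.09 ± 0.07 and -1.11 ± 0.07. PDGFA stood at -0.70 ± 0.14 and -0.74 ± 0.14. At 8 h, 3 of the 6 were called lower there and 1 higher, against 22.1% of all genes. The part of EGR1 in these values was not tested.
Of 6 stress genes, edgeR called 0 at 2 h in Ishikawa cells and HSPH1, a heat shock protein, in T-47D cells (0.34 ± 0.05). E2 target genes rose in both lines at 2 h, 3 of the 4 tested in Ishikawa and 5 of the 6 tested in T-47D cells. Among them PGR, the progesterone receptor, rose by 2.45 ± 0.19 in Ishikawa cells and GREB1, an estrogen receptor cofactor, by 1.78 ± 0.05 in T-47D cells.

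**Figure D4:**
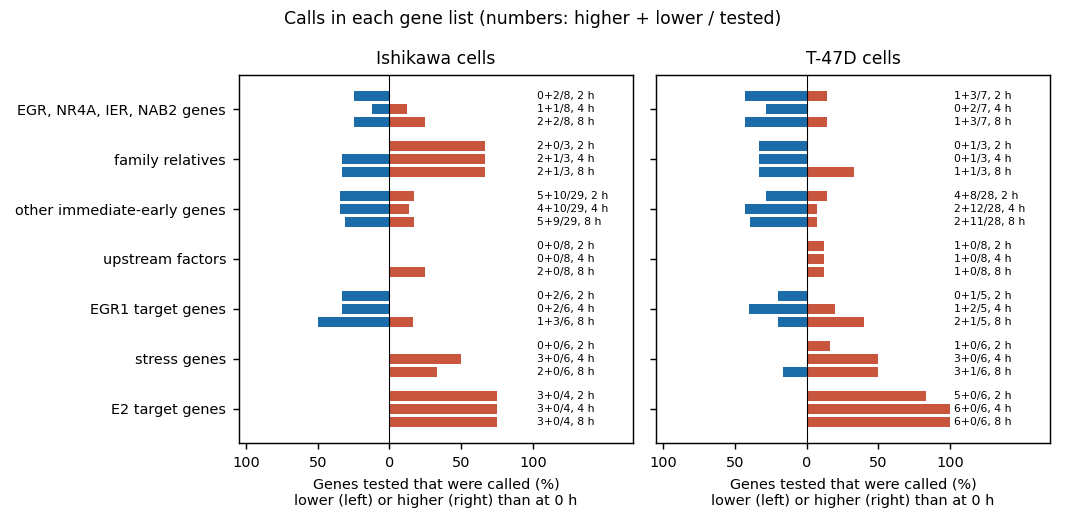
Percent of the genes tested in each list that were called lower (bars to the left) or higher (bars to the right) than at 0 h, at 2, 4 and 8 h from top to bottom, with the numbers called higher plus lower over the number tested printed at the right, and EGR3 left out in T-47D cells. E2 target genes lie on the right in both lines, while of the 29 other immediate-early genes 10 lie on the left at 2 h in Ishikawa and 8 in T-47D cells.

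The genes with values most like those of 4 of the members were named by Pearson correlation of log2 CPM over the 8 libraries of a line. This is a description, since the libraries share their time points. In Ishikawa cells EGR1 was most like KANK1 (r = 0.966), PDE4D (0.964) and MIPEP (0.959), and IER2 was most like TGIF1 (0.991), ZNF217 (0.989) and CITED2 (0.986). NR4A1 was most like ACVR1 (0.984) there, and NAB2 was most like LOC100507412 (0.973), USP27X and SAFB (both 0.967). NAB2 varied in Ishikawa cells mainly between libraries of the same time label, so its correlations there do not describe a course over time. In T-47D cells the highest values were with PDCD7 for EGR1 (0.970), C11orf71 for NR4A1 (0.973), PRR15 for IER2 (0.995) and TRERF1 for NAB2 (0.979). The 3 most similar genes of a member in one line were not among its 3 in the other line for any of these 4 members.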

How the data were processed

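Counts of 16 bulk RNA-seq libraries were used. The deposited values are raw read counts per gene, in 1 table for each cell line. To make them, the authors ran HISAT2 against the hg19 build, SAMtools for file conversion and featureCounts on the UCSC Known Genes, and DESeq2 was their test. Versions, the strand setting and the treatment of read pairs and multiply aligned reads are not given in the sources used here. The single-cell data of the study were not used here.

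Groups are the labelled line and hour. In edgeR 4.0.16 (R 4.3.3), filterByExpr and TMM were applied, and the 8 libraries of a line were fitted together with 1 coefficient for each of the 4 time points, and differences between the lines, at 0 h and in the change with time, were tested over all 16 libraries, with the quasi-likelihood F-test and an adjusted p (Benjamini-Hochberg) under 0.05 over all genes. Members with under 10 counts in a library of a fit that passed the filter only through groups where they were high are given without that test. These were EGR3 in T-47D cells, and EGR2, EGR3 and IER3 between the lines at 0 h and in the change with time. Replicates varied by a biological coefficient of 6.45% (Ishikawa) and 5.02% (T-47D). Each standard error is the estimate over the root of its F statistic. CPM use TMM-scaled totals over 16 libraries, and log2 CPM a prior count of 2. Levels per length use the union of GENCODE 44 exons on GRCh37, which also gave positions and overlaps. Promoter windows came from RefSeq for 6 of the 9 genes. Intervals of ratios of counts are exact at 95%.

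On simulated counts in which 200 genes had a log2 change of 1, the script recovered 81.5% of them for Ishikawa and 81.0% for T-47D cells at 2 h, and 67.5% for the difference between the lines. Before that change, the simulation gave each gene the same level in all libraries of a fit. The 67.5% therefore does not cover genes whose level differs between the lines. Of the calls, 8.43%, 11.0% and 7.53% were unchanged genes, above the 5% that the threshold aims at.

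The members and gene lists were chosen with earlier results of these data known. Named are the 9 members, their relatives, at most the 3 called genes of each other list with the largest change at 2 h in each line, and the 3 genes most like EGR1, NR4A1, IER2 and NAB2, of which only the first is given for some. Same-numbered replicates did not deviate together (correlations between -0.115 and 0.0595), so no block was used. Alternatives were DESeq2 1.42.0, RLE size factors, no filter on low counts, a minimum of 10 counts per library, the replicate block, counts divided by 2, only the groups compared, 4 h and 8 h in Ishikawa cells as 1 group, and leaving out each library.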

Additional observations from a re-analysis of the deposited data

Results flagged for a closer look

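The change from 0 h to 2 h in NR4A2 differed between the lines, with a T-47D minus Ishikawa difference of 1.79 on the log2 scale (edgeR quasi-likelihood interaction test, adjusted p = 0.0145), and NR4A2 was lower in 2 of 2 Ishikawa libraries and higher in 2 of 2 T-47D libraries of 2 h than in all 0-h libraries of the line. The fitted change in EGR3 differed at 2 h by 3.80 and at 8 h by 3.08. Both values rest on 2 and 2 counts at 0 h in T-47D cells and are given without a test.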

How the results depend on the processing

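Of 718 values of members against 0 h under alternatives, 663 kept their direction and their side of the threshold, 21 lost a call, 21 gained one and 13 changed sign, all 13 when 1 library was left out. EGR3 at 2 h and NR4A3 at 8 h in Ishikawa cells were 0.00 as reported, with no direction to keep, and ranged from -0.13 to 0.16 and from -0.21 to 0.20. The counts of calls here include EGR3 in T-47D cells and, between the lines at 0 h and in the change with time, EGR2, EGR3 and IER3. The number of members called moved by more than 1.5 times as follows. Without a filter it was 4 at 4 h against 0 h and 2 at 4 h against 2 h in Ishikawa cells, 2 at 4 h and 2 at 8 h against 2 h in T-47D cells, and 2 at 4 h and 2 at 8 h for the difference between the lines. With at least 10 counts in every library it was 2 at 4 h against 2 h in T-47D cells, 1 at 2 h and 0 at 8 h for the difference between the lines, and 4 at 0 h between the lines. DESeq2 called 2 members at 4 h against 2 h in Ishikawa cells, 3 at 2 h against 0 h and 0 at 4 h against 2 h in T-47D cells, where EGR3 at 2 h and EGR1 at 4 h against 2 h had no adjusted p. Counts divided by 2 gave 2, and only the groups compared gave 3, at 4 h against 2 h in T-47D cells. With 4 h and 8 h as 1 group, 5 members were called against 0 h and 2 against 2 h in Ishikawa cells. Among smaller moves, 2 h against 0 h in Ishikawa cells went from 2 to 3 calls (NR4A2 added) without a filter, in DESeq2, with counts divided by 2, with only the groups compared and with 4 h and 8 h as 1 group, and 2 h against 0 h in T-47D cells went from 5 to 7 without a filter (NR4A2 and NR4A3 added).

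With the replicate block, 1 member was called at 8 h against 2 h in Ishikawa cells and 0 at 4 h against 2 h in T-47D cells, and EGR1 at 2 h against 0 h in T-47D cells had an adjusted p of 0.0523. The replicate numbers did not pair the libraries (correlations of deviations -0.115 to 0.0533 in Ishikawa and -0.0547 to 0.0595 in T-47D cells).

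Leaving out 1 library gave 2 to 5 members at 8 h against 0 h, 1 to 2 at 4 h against 2 h and 1 to 2 at 8 h against 2 h in Ishikawa cells. In T-47D cells it gave 3 to 5 at 2 h and 3 to 5 at 8 h against 0 h, and 0 to 2 at 4 h and 0 to 2 at 8 h against 2 h. For the difference between the lines it gave 0 to 3 at 2 h, 0 to 1 at 4 h and 0 to 2 at 8 h. Signs changed only in uncalled values. In Ishikawa cells the log2 fold change of EGR2 ranged from -0.77 to 0.18 at 2 h, -0.11 to 1.14 at 4 h and -0.04 to 0.75 at 8 h, and that of NAB2 from -0.02 to 0.09, -0.23 to 0.23 and -0.28 to 0.29. In T-47D cells that of EGR1 ranged from -0.08 to 0.23 and that of NR4A3 from -0.27 to 0.10 at 4 h, and that of NR4A2 from -0.16 to 0.76 at 8 h. NR4A1 at 8 h against 0 h in Ishikawa cells was not called with only the groups compared (adjusted p = 0.0568). Depth limits EGR2 in both lines, EGR3 and EGR1 in T-47D cells and IER3 in Ishikawa cells.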
